A study of Homo sapiens with 9 samples.

Results

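The 55 genes described here form a module of mitosis and G2/M genes, the genes whose products carry a cell from the end of DNA replication through chromosome segregation to cytokinesis. They were chosen by name, with earlier results of these data known. They are the rows of the deposited expression table whose gene symbol is among 55 listed symbols. All 55 matched 1 row each of the 60612 genes in the table, and all 55 had enough counts to be tested. The cells were MDA-MB-231, a human triple-negative breast cancer line of basal B type. Libraries of 3 groups, 3 libraries each, were made 48 h after lipid transfection: cells given MILIP siRNA1, cells given MILIP siRNA2, and cells given a negative control siRNA. MILIP is a long noncoding RNA, listed in the table as MAFG-DT. The title and treatment labels name MILIP as the target, while the transfection protocol names PLANE, another long noncoding RNA, for the same siRNAs. All 9 libraries came from 1 cell line cultured in serum, with no sorting or synchronisation stated, and no rescue of MILIP was among the groups. Nothing in the labels states whether a group's libraries stem from different cultures. The p-values therefore reflect library-to-library spread alone, possibly of technical origin.

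Entry into mitosis is driven by the kinase CDK1 bound to cyclin B. WEE1 and PKMYT1 hold this kinase in check by phosphorylation, and CDC25 phosphatases release it. Polo-like and Aurora kinases then build the spindle, the kinetochore joins chromosomes to it, and the spindle assembly checkpoint delays anaphase until every kinetochore is attached. CDC20 and the anaphase-promoting complex end the delay by having securin and cyclin B destroyed. Transcripts of many of these genes peak together late in the cycle. B-MYB and FOXM1 then act with the MuvB complex at promoters that carry a cell cycle homology region (CHR) and CCAAT boxes. A bulk level of such a transcript therefore joins the share of cells in G2 and mitosis with the amount of RNA per cell, and these libraries cannot tell the 2 apart.

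Library totals ran from 15281220 to 19759371 gene counts, and 15345 genes passed a filter on low counts. Levels are given as CPM, counts per 1000000 after TMM scaling, and as FPKM, which also divides by transcript length, where genes are set beside each other. A gene is said to be called, or to rise or fall, where edgeR's quasi-likelihood test gave an adjusted p below 0.05 (Benjamini-Hochberg, over all 15345 genes). Fold changes are on the log2 scale, followed by their standard error (SE). The median fold change over all tested genes was close to 0 in each comparison (0.003 with siRNA1, -0.011 with siRNA2 and -0.033 for siRNA2 against siRNA1). MILIP was lower with each siRNA, at 1.24 ± 0.641 CPM with siRNA1, 0.616 ± 0.316 CPM with siRNA2 and 8.41 ± 0.254 CPM in control libraries (SD, n = 3 each), with an exact two-sided permutation p of 0.1 for each, the smallest that 3 libraries against 3 allow. The markers VIM and CD44 were present and ESR1 and PGR were at or near 0 in all groups, as in this line. ERBB2, listed as low or absent, averaged 5.37 FPKM with siRNA1, 6.93 FPKM with siRNA2 and 5.9 FPKM in control libraries. The control median over all tested genes was 3.83 FPKM. Defining leukocyte and fibroblast genes were at or near 0 in every group. Control library 3 and siRNA1 library 2 differed most from the others of their groups.

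With siRNA2, 47 of the 55 genes fell and 3 rose, and the median log2 fold change was -0.46. With siRNA1, 13 fell and 15 rose, with a median of -0.04. Set against all genes tested, the siRNA2 drop took in 85.5% of the module where 28.9% of all genes fell. The rise took in 5.45% where 27.2% of all genes rose. The genes were listed with earlier results of these data known, so these shares describe the module and are no independent test of it. The shares with siRNA1 were 23.6% lower against 25.3% of all genes, and 27.3% higher against 25.1%, so the siRNA1 counts were near the background. The comparison of the siRNAs themselves, in which the control libraries play no part in the fold change, called 46 genes lower with siRNA2 than with siRNA1 (83.6% against 32% of all genes) and 1 higher, TOP2A (1.82% against 28.4%). In 51 of the 55 genes the siRNA1 fold change was above the siRNA2 fold change. Summed over the module, the level was 7596, 8125 and 7962 CPM with siRNA1, 5451, 5989 and 6010 CPM with siRNA2, and 7948, 7964 and 8055 CPM in control libraries. The siRNA2 libraries lay below all others, while the siRNA1 and control libraries overlapped.

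Of the 55 genes, 13 fell with both siRNAs (23.6% of the module against 11.1% of all genes), namely MELK, BUB1, BUB3, MAD2L1, INCENP, SPC25, CDCA5, TOP2A, SMC2, NCAPG, NCAPH, GTSE1 and FOXM1. The 3 that rose with siRNA2, CKS2, CDC25B and WEE1, also rose with siRNA1 (5.45% against 11.8%). Another 11 rose with siRNA1 and fell with siRNA2 (20% against 9.93%): CDK1, CCNB1, CCNB2, CKS1B, PLK1, AURKA, BIRC5, UBE2C, CDCA3, PTTG1 and DLGAP5. A further 23 fell with siRNA2 and were not called with siRNA1, a class whose share over all genes was not counted. Both comparisons use the same control libraries. Among called genes the groups rarely overlapped. With siRNA1, all 13 that fell and 14 of the 15 that rose had no library of one group within the range of the other. The same held for all 50 called with siRNA2 against control and for all but 1 of the 47 called between the siRNAs. Overlap was not counted over all genes, so these counts describe the calls and lend them no further support.

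**Figure D1:**
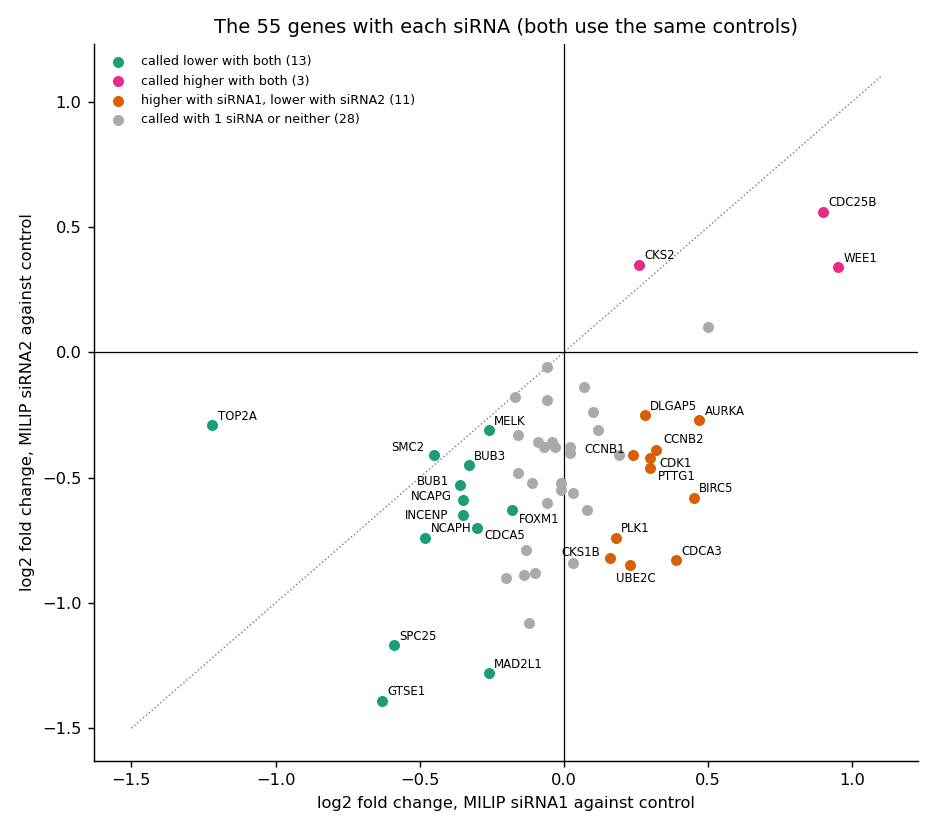
Log2 fold change against control siRNA with MILIP siRNA1 (horizontal axis) and MILIP siRNA2 (vertical axis), 1 point per gene, coloured by the calls; the dotted line marks equal fold changes. The 11 orange points lie right of 0 and below 0, TOP2A lies alone at the left at -1.22, and 51 of the 55 points lie below the dotted line.

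Most promoters of the module carried a CHR match. RefSeq promoter windows, from 250 bases before to 50 bases after a transcription start in GRCh38.p14, were at hand for 46 of the 55 genes. The CHR was searched as TTTGAA on both strands or as TTCGAA, which reads the same on both. It occurred in 37 of the 46 genes (80.4%), against 19.5% of the 27305 genes with a window and 15.4% of the 10796 of them that were tested here. The CCAAT box, CCAAT on either strand, occurred in 76.1%, against 39.7% of all and 42.9% of tested genes, and 2 or more CCAAT boxes in 56.5%, against 12.9% and 16.2%. The E2F forms TTCCCGC and TTGGCGC occurred in 23.9%, against 11% of all and 17.6% of tested genes. Of the 47 matches to TTTGAA in the 59 windows of the module, 29 were centred within 50 bases of the start. Overlapping windows of a gene count a site again, as in CDC25C and ECT2, and no such count was made over all promoters. A match is a run of letters and not a measured binding site.

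**Figure D2:**
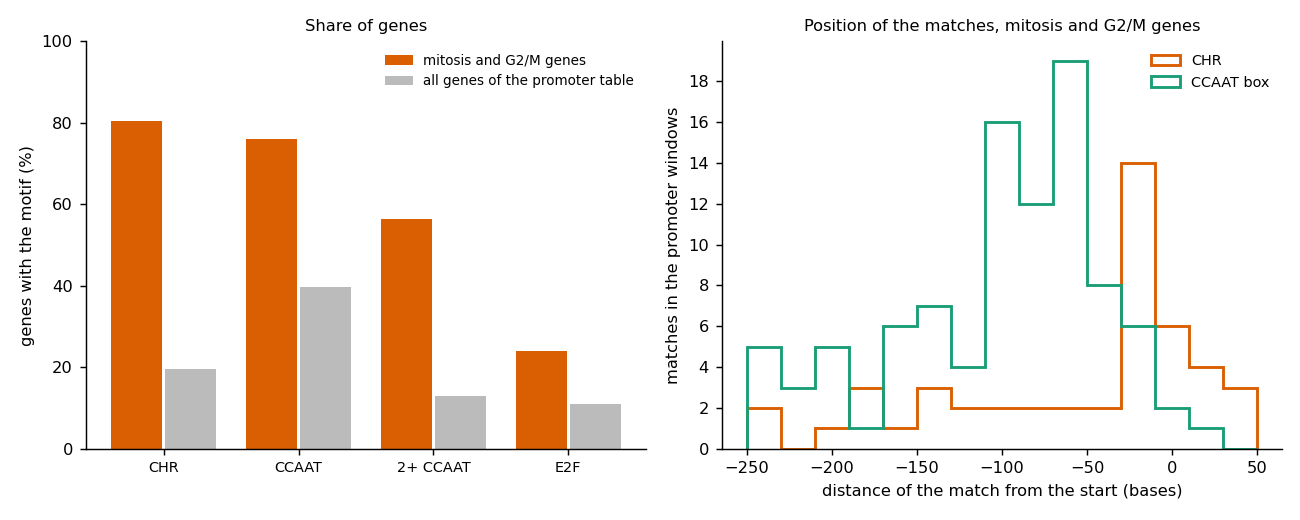
Left, percent of genes whose promoter window holds each motif, for the 46 genes of the module with a window (orange) and for all 27305 genes (grey). Right, number of TTTGAA matches (orange) and CCAAT boxes (green) in the 59 windows of the module by distance from the transcription start in bases; the tallest CHR bar lies just before the start and the tallest CCAAT bars further upstream, between about 110 and 50 bases before it.

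The promoters of 5 genes are printed, those of CCNB1 and CDK1 as the partners of the mitotic kinase, and those of TOP2A, GTSE1 and CDCA3, which had the lowest fold change with siRNA1, with siRNA2 and between the siRNAs. Each runs 5′ to 3′ on the gene's own strand with the matches in capitals: TTTGAA or its reverse TTCAAA for the CHR, CCAAT or its reverse ATTGG, and the E2F forms or their reverses. The CCNB1 window is chr5:69166900-69167199 on the plus strand, that of CDK1 chr10:60778081-60778380 on the plus strand, that of TOP2A chr17:40417847-40418146 on the minus strand, that of GTSE1 chr22:46296620-46296919 on the plus strand and that of CDCA3 chr12:6851237-6851536 on the minus strand.
CCNB1: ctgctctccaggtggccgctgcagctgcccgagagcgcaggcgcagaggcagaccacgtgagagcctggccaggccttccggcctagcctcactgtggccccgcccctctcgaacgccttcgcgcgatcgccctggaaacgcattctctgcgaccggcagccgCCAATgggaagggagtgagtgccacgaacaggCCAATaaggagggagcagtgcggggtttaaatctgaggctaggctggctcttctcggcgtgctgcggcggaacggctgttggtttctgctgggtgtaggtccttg
CDK1: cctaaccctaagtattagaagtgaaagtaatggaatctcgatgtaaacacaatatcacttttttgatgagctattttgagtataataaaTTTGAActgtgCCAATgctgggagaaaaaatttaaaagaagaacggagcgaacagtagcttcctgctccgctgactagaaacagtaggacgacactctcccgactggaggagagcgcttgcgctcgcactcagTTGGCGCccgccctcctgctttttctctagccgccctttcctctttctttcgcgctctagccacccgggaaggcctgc
TOP2A: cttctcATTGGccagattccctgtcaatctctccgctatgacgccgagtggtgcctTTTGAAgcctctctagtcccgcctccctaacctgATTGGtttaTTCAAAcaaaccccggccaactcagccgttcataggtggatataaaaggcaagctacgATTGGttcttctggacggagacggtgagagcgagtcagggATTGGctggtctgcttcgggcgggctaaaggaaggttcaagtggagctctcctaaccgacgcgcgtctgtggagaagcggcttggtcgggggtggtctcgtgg
GTSE1: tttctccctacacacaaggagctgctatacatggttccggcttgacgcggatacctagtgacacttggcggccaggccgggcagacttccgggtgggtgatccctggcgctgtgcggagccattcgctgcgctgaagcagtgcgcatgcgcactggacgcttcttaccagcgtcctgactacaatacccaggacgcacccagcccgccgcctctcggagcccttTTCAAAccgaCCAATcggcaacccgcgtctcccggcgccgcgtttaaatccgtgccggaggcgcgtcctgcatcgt
CDCA3: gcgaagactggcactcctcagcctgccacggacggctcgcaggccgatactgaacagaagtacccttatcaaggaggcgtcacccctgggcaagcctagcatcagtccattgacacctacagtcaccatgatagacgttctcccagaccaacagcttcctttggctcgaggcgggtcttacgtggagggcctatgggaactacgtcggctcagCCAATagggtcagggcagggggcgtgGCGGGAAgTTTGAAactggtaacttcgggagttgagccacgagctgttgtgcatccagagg
The CCNB1 window holds a pair of CCAAT boxes, which begin 87 and 55 bases before the start, and no CHR match. TOP2A holds a CHR match on each strand and 4 CCAAT boxes. In CDCA3 a CCAAT box, an E2F form and a CHR match follow each other, beginning 37, 11 and 3 bases before the start, and the CHR match runs across it. In GTSE1 the CHR match begins 26 and the CCAAT box 16 bases before the start. Genes with and without a CHR match had similar medians. For the 37 genes with a CHR match the median was -0.06 (siRNA1) and -0.48 (siRNA2), and for the 9 without one 0.02 and -0.41. The printed CDK1 window holds 1 CHR match, which begins 161 bases before the start, and a second CDK1 window, not printed, holds 3 matches centred at -66.5, -10.5 and 11.5 bases from its own start.

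The CDK1 and cyclin B switch was the group in which most genes rose with siRNA1: 7 of its 9 genes rose and none fell, while 5 fell and 3 rose with siRNA2. CDK1, the kinase itself, had 148, 173 and 153 CPM with siRNA1, 87.7, 97.1 and 102 CPM with siRNA2, and 132, 118 and 135 CPM in control libraries. CCNB1, the main mitotic cyclin, had 376, 394 and 390 CPM with siRNA1, 235, 252 and 253 CPM with siRNA2, and 322, 310 and 349 CPM in control libraries. CCNB2, its Golgi-associated relative, had 109, 113 and 118 CPM with siRNA1, 64.6, 71.6 and 71.5 CPM with siRNA2, and 91, 93.4 and 88.6 CPM in control libraries. In all 3 genes every siRNA1 library lay above and every siRNA2 library below every control library. The log2 fold changes with siRNA1 were 0.30 ± 0.072 for CDK1, 0.24 ± 0.057 for CCNB1 and 0.32 ± 0.064 for CCNB2 (SE), and with siRNA2 they were -0.42 ± 0.073, -0.41 ± 0.057 and -0.39 ± 0.065. The adjusted p of edgeR's quasi-likelihood test for CDK1 was 0.00108 with siRNA1 and 2.18e-05 with siRNA2. CCNB2 overlaps a gene on the opposite strand, and the sources used here do not give the strandedness of the counting, so its reads and those of that gene cannot be told apart.

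CKS1B and CKS2, small proteins that bind CDK1 complexes and help them reach their substrates, parted. CKS1B had 179, 171 and 187 CPM with siRNA1, 87.6, 91.5 and 93.3 CPM with siRNA2, and 148, 158 and 174 CPM in control libraries. Its siRNA2 libraries were far below the rest (-0.82 ± 0.065), while 1 siRNA1 library lay within the control range and the siRNA1 rise of 0.16 ± 0.064 rested on single libraries. Its adjusted p was 0.0373 with all libraries, 0.219 without control library 1, 0.106 without control library 2, 0.128 without siRNA1 library 1, 0.163 without siRNA1 library 3, 0.0551 without siRNA2 library 2, 0.0524 without siRNA2 library 3 and 0.0637 with DESeq2. CKS2 had 124, 131 and 125 CPM with siRNA1, 128, 138 and 138 CPM with siRNA2, and 98.7, 97.7 and 119 CPM in control libraries. Both siRNA groups were above every control library and overlapped each other, with fold changes of 0.26 ± 0.071 with siRNA1 and 0.35 ± 0.07 with siRNA2. CKS1B and CKS2 are close paralogs with pseudogene copies that can share reads, so both levels are uncertain to that extent.

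The regulators of CDK1 phosphorylation differed among themselves. WEE1, the inhibitory kinase in the nucleus, had 78, 92 and 88.9 CPM with siRNA1, 53.7, 61.2 and 54.3 CPM with siRNA2, and 48.1, 46.1 and 40.1 CPM in control libraries. All siRNA1 libraries were highest, all siRNA2 libraries next and all control libraries lowest, with fold changes of 0.95 ± 0.082 with siRNA1 and 0.34 ± 0.083 with siRNA2. CDC25B, the phosphatase that starts CDK1 activation, showed the same order at 277 ± 20.2 CPM with siRNA1, 218 ± 3.08 CPM with siRNA2 and 148 ± 9.98 CPM in control libraries (SD, n = 3 each). Its fold changes were 0.90 ± 0.063 and 0.56 ± 0.063. PKMYT1, the inhibitory kinase at internal membranes, had 84.5, 70.8 and 92.4 CPM with siRNA1, 48.8, 47.2 and 51.3 CPM with siRNA2, and 85.2, 91.9 and 95.9 CPM in control libraries. It fell with siRNA2 (-0.89 ± 0.082), and its siRNA1 and control libraries overlapped (-0.14 ± 0.08, not called). CDC25C, a phosphatase that acts at mitotic onset, was not called with either siRNA (-0.06 ± 0.096 and -0.19 ± 0.096). The inhibitor WEE1 and the activator CDC25B thus both rose, and the inhibitor PKMYT1 fell with siRNA2. PKMYT1 overlaps KREMEN2 and PAQR4 on the opposite strand.

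**Figure D3:**
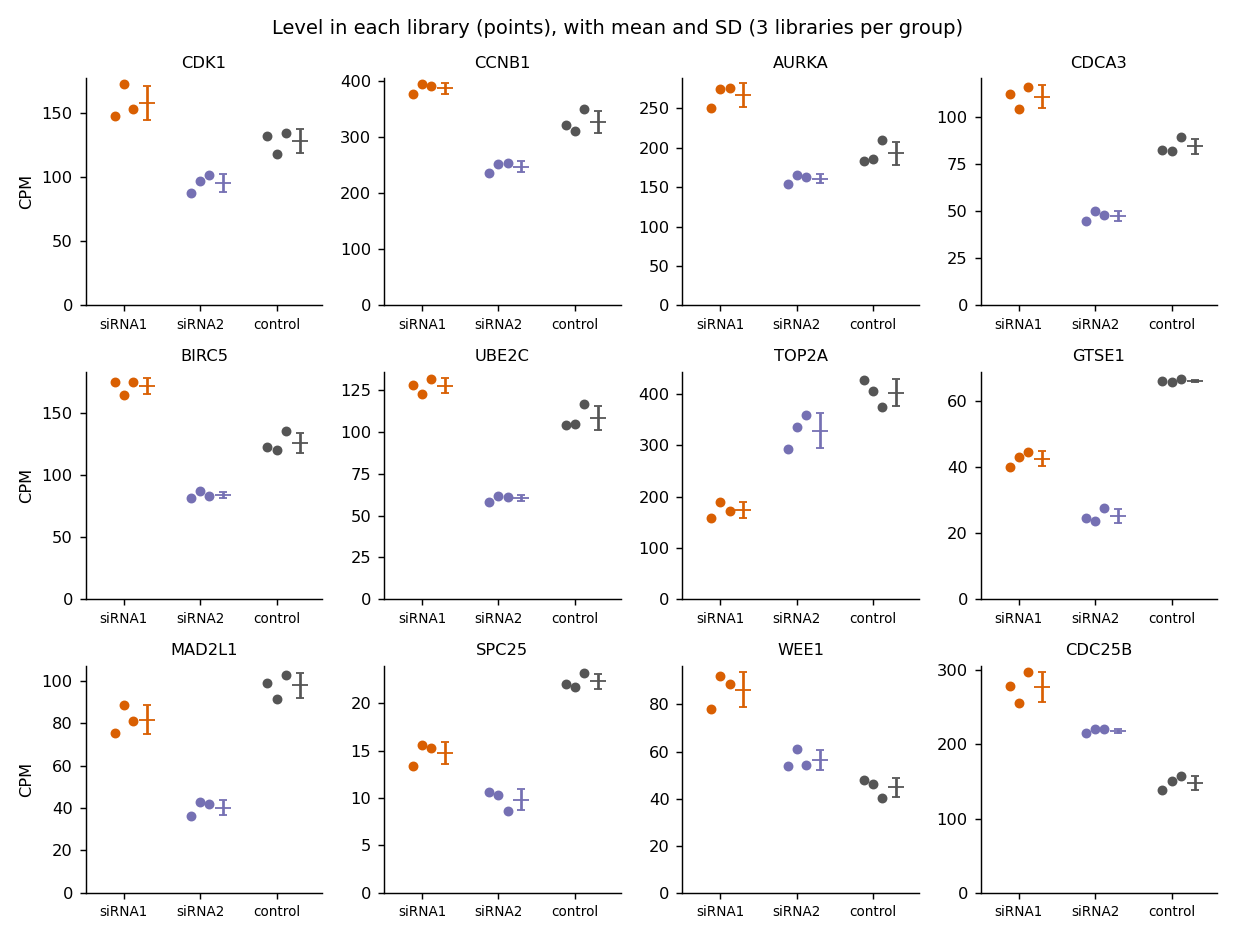
CPM in each library (points), with mean and SD (bar), for 12 genes; vertical axes start at 0 and the groups run siRNA1, siRNA2, control from left to right. CDK1, CCNB1, AURKA, CDCA3, BIRC5 and UBE2C step down from siRNA1 over control to siRNA2, TOP2A is lowest with siRNA1, GTSE1, MAD2L1 and SPC25 are lowest with siRNA2, and WEE1 and CDC25B are highest with siRNA1.

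Among the mitotic kinases and their activators, 5 of 6 genes fell with siRNA2, while with siRNA1 2 rose and 1 fell. AURKA, the centrosomal Aurora kinase, had 250, 275 and 276 CPM with siRNA1, 154, 165 and 163 CPM with siRNA2, and 183, 186 and 210 CPM in control libraries. The groups did not overlap, and AURKA rose with siRNA1 (0.47 ± 0.063, adjusted p 9.57e-07 by edgeR) and fell with siRNA2 (-0.27 ± 0.063, adjusted p 0.000848). TPX2, which activates AURKA on spindle microtubules, had 381, 424 and 401 CPM with siRNA1, 243, 281 and 280 CPM with siRNA2, and 391, 392 and 399 CPM in control libraries. Its siRNA2 libraries were all below the others, with a fold change of -0.56 ± 0.061, and its siRNA1 and control libraries overlapped (0.03 ± 0.06, not called). AURKA and its activator thus differed in their siRNA1 calls, a difference that was not tested itself.

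PLK1, the polo-like kinase of centrosomes and kinetochores, had 272, 270 and 304 CPM with siRNA1, 136, 152 and 157 CPM with siRNA2, and 226, 262 and 256 CPM in control libraries. It fell with siRNA2 (-0.74 ± 0.068), with every siRNA2 library below every other. The siRNA1 rise was small (0.18 ± 0.067, adjusted p 0.0257 by edgeR) and depended on single libraries, since the adjusted p was 0.187 without control library 1, 0.0519 without siRNA1 library 1 and 0.175 without siRNA1 library 3. PLK1 overlaps ERN2 on the opposite strand. BORA, the cofactor through which AURKA activates PLK1, was not called with siRNA1 (-0.01 ± 0.11) and fell with siRNA2 (-0.52 ± 0.11). MELK, a kinase abundant in dividing tumour cells, fell about alike with both (-0.26 ± 0.066 and -0.31 ± 0.066), and the siRNAs were not called different from each other (-0.04 ± 0.066). NEK2, a kinase that separates centrosomes, was not called in any comparison, with -0.06 ± 0.08 for siRNA1 and -0.06 ± 0.079 for siRNA2.

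All 5 spindle assembly checkpoint genes fell with siRNA2, and 3 of them also with siRNA1. MAD2L1, which encodes MAD2, the checkpoint protein that binds CDC20, had 75.3, 88.8 and 81 CPM with siRNA1, 36.1, 42.7 and 41.8 CPM with siRNA2, and 99.1, 91.7 and 103 CPM in control libraries. Each siRNA2 library held less than any siRNA1 library, and each siRNA1 library less than any control library, so that 41.1% of the control level was left with siRNA2 and 83.5% with siRNA1. Its siRNA2 fold change of -1.28 ± 0.079 was the second lowest of the module, and its siRNA1 fold change was -0.26 ± 0.075. BUB1, a kinetochore kinase of the checkpoint, had 142, 159 and 140 CPM with siRNA1, 120, 134 and 139 CPM with siRNA2, and 192, 188 and 188 CPM in control libraries. BUB3, the adaptor that carries BUB1 and BUB1B to kinetochores, had 381, 384 and 391 CPM with siRNA1, 347, 354 and 358 CPM with siRNA2, and 475, 486 and 490 CPM in control libraries. The control libraries were highest for both genes, with fold changes of -0.36 ± 0.065 (siRNA1) and -0.53 ± 0.065 (siRNA2) for BUB1 and of -0.33 ± 0.05 (siRNA1) and -0.45 ± 0.051 (siRNA2) for BUB3.

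The differences of BUB1 and BUB3 between the siRNAs were small (-0.17 ± 0.065 and -0.13 ± 0.051), and the calls were not firm. For BUB1 the adjusted p of 0.0292 became 0.065 without control library 1, 0.0555 without siRNA1 library 1, 0.154 without siRNA1 library 2, 0.214 without siRNA2 library 1 and 0.051 without siRNA2 library 2. For BUB3 the adjusted p of 0.0342 became 0.0914 without control library 1, 0.107 without siRNA1 library 1, 0.105 without siRNA1 library 3, 0.11 without siRNA2 library 1, 0.0906 without siRNA2 library 2 and 0.0671 without siRNA2 library 3, by edgeR's quasi-likelihood test. BUB1B, which encodes BUBR1 of the mitotic checkpoint complex, and TTK, the kinase MPS1 that starts checkpoint signalling, fell with siRNA2 (-0.79 ± 0.073 and -0.36 ± 0.084) and were not called with siRNA1 (-0.13 ± 0.072 and -0.04 ± 0.083). For both, siRNA2 was also called lower than siRNA1 (-0.65 ± 0.073 and -0.33 ± 0.084). BUB1B shares its strand with the overlapping gene PAK6.

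The chromosomal passenger complex, in which AURKB is held at centromeres by INCENP, survivin and borealin, fell in all 4 genes with siRNA2. AURKB had 134, 120 and 137 CPM with siRNA1, 68.8, 70.9 and 74.4 CPM with siRNA2, and 122, 123 and 138 CPM in control libraries. Its siRNA2 libraries were below all others, at 55.9% of the control mean (-0.84 ± 0.069), and its siRNA1 and control libraries overlapped (0.03 ± 0.067, not called). BIRC5, which encodes survivin, had 175, 164 and 175 CPM with siRNA1, 81.6, 86.7 and 83.2 CPM with siRNA2, and 122, 120 and 135 CPM in control libraries. The groups did not overlap, and BIRC5 stood at 137% of the control mean with siRNA1 and 66.8% with siRNA2 (0.45 ± 0.062 and -0.58 ± 0.063). INCENP, the scaffold, fell with both (-0.35 ± 0.058 and -0.65 ± 0.059). CDCA8, which encodes borealin, had 127, 136 and 133 CPM with siRNA1, 99.7, 106 and 105 CPM with siRNA2, and 128, 136 and 140 CPM in control libraries. It was below both other groups with siRNA2 (-0.38 ± 0.06) and was not called with siRNA1 (-0.03 ± 0.06). Within this 1 complex the siRNA1 calls were 1 higher, 1 lower and 2 not called. These counts lie near the shares over all genes, 25.1% higher and 25.3% lower.

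All 8 centromere and kinetochore genes fell with siRNA2 and were lower with siRNA2 than with siRNA1, and 1 of them, SPC25, fell with siRNA1. SPC24 and SPC25 form the arm of the NDC80 complex that faces the chromosome. SPC25 had 13.4, 15.6 and 15.3 CPM with siRNA1, 10.6, 10.3 and 8.62 CPM with siRNA2, and 22, 21.7 and 23.2 CPM in control libraries. SPC24 had 20.1, 20.9 and 25.5 CPM with siRNA1, 11.7, 11.4 and 11.1 CPM with siRNA2, and 22.3, 23 and 26.9 CPM in control libraries. For SPC25 every control library was above every siRNA1 library and these above every siRNA2 library, while for SPC24 the siRNA1 and control libraries overlapped. Their siRNA2 fold changes were -1.17 ± 0.11 and -1.08 ± 0.11, and those with siRNA1 -0.59 ± 0.1 and -0.12 ± 0.1. The microtubule-binding arm of the complex, NDC80 and NUF2, fell by less with siRNA2 (-0.60 ± 0.08 and -0.41 ± 0.094) and was not called with siRNA1 (-0.06 ± 0.078 and 0.19 ± 0.092). SPC25 overlaps NOSTRIN and G6PC2 on the opposite strand, so part of its reads may belong to those genes, which was not tested.

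HJURP, the chaperone that loads the centromeric histone CENPA, had 165, 178 and 173 CPM with siRNA1, 109, 126 and 121 CPM with siRNA2, and 177, 174 and 170 CPM in control libraries. The siRNA2 libraries were lower than all others (-0.55 ± 0.062), and the siRNA1 libraries spanned the control ones (-0.01 ± 0.061, not called). CENPA itself fell with siRNA2 (-0.31 ± 0.08) and was not called with siRNA1 (0.12 ± 0.079). The kinetochore motor CENPE and the fibrous corona protein CENPF fell with siRNA2 too (-0.40 ± 0.12 and -0.52 ± 0.079). CENPE had 1 siRNA2 library, at 42 CPM, just above the lowest siRNA1 library, at 41.8 CPM, the one overlap among genes called between the siRNAs.

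Of the 8 genes of mitotic ubiquitin ligases and anaphase, 4 rose and 1 fell with siRNA1, and 6 fell with siRNA2. CDC20, the coactivator that directs the anaphase-promoting complex to securin and cyclin B, had 368, 342 and 392 CPM with siRNA1, 202, 221 and 220 CPM with siRNA2, and 369, 398 and 418 CPM in control libraries. All siRNA2 libraries were below the rest, at 54.3% of the control mean (-0.88 ± 0.062), and the siRNA1 and control libraries overlapped (-0.10 ± 0.061, not called). UBE2C, the ubiquitin-conjugating enzyme that serves the complex, had 128, 123 and 132 CPM with siRNA1, 58.4, 62 and 61.1 CPM with siRNA2, and 104, 105 and 117 CPM in control libraries. CDCA3, which takes part in the destruction of WEE1, had 112, 104 and 116 CPM with siRNA1, 44.6, 49.8 and 47.8 CPM with siRNA2, and 82.2, 81.8 and 89.1 CPM in control libraries. Both genes had all siRNA1 libraries above and all siRNA2 libraries below the control libraries, with fold changes of 0.23 ± 0.064 (siRNA1) and -0.85 ± 0.066 (siRNA2) for UBE2C and of 0.39 ± 0.067 (siRNA1) and -0.83 ± 0.07 (siRNA2) for CDCA3. The CDCA3 difference between the siRNAs, -1.23 ± 0.069, was the widest drop of the module, with an adjusted p of 1.16e-13 by edgeR. CDCA3 overlaps GNB3 on the opposite strand.

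FBXO5, the EMI1 inhibitor of the anaphase-promoting complex, had 44.2, 47.4 and 38.3 CPM with siRNA1, 24.1, 26.8 and 28.9 CPM with siRNA2, and 50.8, 47.2 and 51.2 CPM in control libraries. It fell with siRNA2 (-0.90 ± 0.089) and missed the call with siRNA1, where the groups overlapped (-0.20 ± 0.086, adjusted p 0.0531 by edgeR). CCNF, the F-box protein cyclin F, had 108, 100 and 120 CPM with siRNA1, 79.4, 88.7 and 79.8 CPM with siRNA2, and 74, 80.4 and 77.7 CPM in control libraries. It was the other way about, above all control libraries with siRNA1 (0.50 ± 0.072) and overlapping them with siRNA2 (0.10 ± 0.072, not called). PTTG1, the securin that holds separase inactive, had 166, 177 and 183 CPM with siRNA1, 97.9, 109 and 104 CPM with siRNA2, and 131, 139 and 157 CPM in control libraries. Its siRNA1 libraries were highest and its siRNA2 libraries lowest (0.30 ± 0.068 and -0.46 ± 0.069), although reads of PTTG1 can be shared with the near-identical PTTG2. ESPL1, which encodes separase, was not called in any comparison (-0.17 ± 0.077 with siRNA1 and -0.18 ± 0.077 with siRNA2). CDCA5, the cohesin protector sororin, fell with both (-0.30 ± 0.058 and -0.70 ± 0.059).

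The genes of chromosome condensation were the group with most calls lower with siRNA1, 4 of 6, and all 6 fell with siRNA2. TOP2A, the topoisomerase that untangles sister chromatids, had 158, 190 and 172 CPM with siRNA1, 292, 335 and 360 CPM with siRNA2, and 427, 407 and 375 CPM in control libraries. Its siRNA1 libraries held 43% of the control mean and its siRNA2 libraries 81.6%, with no overlap between any groups, and its siRNA1 fold change of -1.22 ± 0.074 was the lowest of the module. With siRNA2 it was -0.29 ± 0.073, and TOP2A was the 1 gene called higher with siRNA2 than with siRNA1 (0.92 ± 0.074, adjusted p 7.66e-11 by edgeR). NCAPH, the kleisin subunit of condensin I, had 74.7, 79.6 and 78.6 CPM with siRNA1, 62, 67.3 and 65.2 CPM with siRNA2, and 107, 109 and 109 CPM in control libraries. The control libraries lay above both siRNA groups, with fold changes of -0.48 ± 0.062 with siRNA1 and -0.74 ± 0.063 with siRNA2. NCAPG, a further condensin I subunit, followed it (-0.35 ± 0.066 and -0.59 ± 0.066).

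NCAPD2, the most abundant condensin gene here, had 339, 369 and 337 CPM with siRNA1, 272, 304 and 293 CPM with siRNA2, and 370, 389 and 353 CPM in control libraries. It fell with siRNA2 (-0.36 ± 0.059) and its siRNA1 and control libraries overlapped (-0.09 ± 0.059, not called). The 2 ATPase subunits of condensin differed in their siRNA1 values: SMC2 had -0.45 ± 0.071 and was called, SMC4 had -0.07 ± 0.087 and was not. With siRNA2 they were -0.41 ± 0.071 and -0.38 ± 0.087. The SMC4 difference between the siRNAs (-0.30 ± 0.087) had an adjusted p of 0.0642 and a fold change of -0.15 without siRNA1 library 2, the siRNA1 library in which SMC4 was highest. NCAPD2 and SMC4 each overlap genes on both strands, small RNA genes among them.

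Of the 8 spindle and cytokinesis genes 7 fell with siRNA2, and with siRNA1 GTSE1 fell and DLGAP5 rose. GTSE1, a microtubule-associated protein of G2 and S phase that restrains p53, had 40.1, 42.9 and 44.6 CPM with siRNA1, 24.5, 23.5 and 27.5 CPM with siRNA2, and 65.9, 65.8 and 66.5 CPM in control libraries. The 3 groups were far apart, with 64.4% of the control level left with siRNA1 and 38.1% with siRNA2, and the siRNA2 fold change of -1.39 ± 0.078 was the lowest of the module in any comparison (adjusted p 1.54e-13 by edgeR). With siRNA1 it was -0.63 ± 0.075. DLGAP5, the spindle protein HURP, had 102, 120 and 107 CPM with siRNA1, 71, 75.5 and 82 CPM with siRNA2, and 90.4, 87.7 and 93.5 CPM in control libraries. Its groups did not overlap, and it rose by 0.28 ± 0.07 with siRNA1 and had -0.25 ± 0.071 with siRNA2. ANLN, the actin-binding protein anillin of the cleavage furrow, had 381, 460 and 407 CPM with siRNA1, 298, 338 and 351 CPM with siRNA2, and 407, 385 and 372 CPM in control libraries. It fell with siRNA2 (-0.24 ± 0.068), a call that ended without siRNA2 library 1, where the fold change was -0.17 and the adjusted p 0.0528.

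ECT2, the exchange factor that activates RhoA at the cleavage furrow, and PRC1, which bundles the central spindle, fell with siRNA2 (-0.63 ± 0.071 and -0.48 ± 0.071) and were not called with siRNA1 (0.08 ± 0.07 and -0.16 ± 0.07). CKAP2 followed the same pattern (0.02 ± 0.069 with siRNA1 and -0.38 ± 0.07 with siRNA2). ASPM, a spindle pole protein, was not called in any comparison (0.07 ± 0.12 with siRNA1 and -0.14 ± 0.12 with siRNA2), with libraries that varied from 69.9 to 122 CPM over the 2 siRNA groups. NUSAP1, a microtubule-bundling protein, had the lowest level per length of the module and an unstable siRNA2 call (-0.33 ± 0.13, adjusted p 0.0308 by edgeR). That p was 0.0723 without control library 1, 0.166 without control library 2, 0.0628 without siRNA2 library 1, 0.15 without siRNA2 library 3 and 0.117 with DESeq2. NUSAP1 also overlaps OIP5 on the opposite strand.

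FOXM1, the transcription factor that drives many late cell cycle genes, had 178, 175 and 182 CPM with siRNA1, 125, 131 and 136 CPM with siRNA2, and 199, 205 and 203 CPM in control libraries. The control libraries were highest, the siRNA1 libraries next and the siRNA2 libraries lowest without overlap. The fold change was -0.18 ± 0.056 with siRNA1 (adjusted p 0.008) and -0.63 ± 0.056 with siRNA2 (adjusted p 7.82e-10), by edgeR's quasi-likelihood test. FOXM1 overlaps ITFG2 and RHNO1 on the opposite strand. Over the module, 22 of the 55 genes overlap an annotated gene on the opposite strand.

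**Figure D4:**
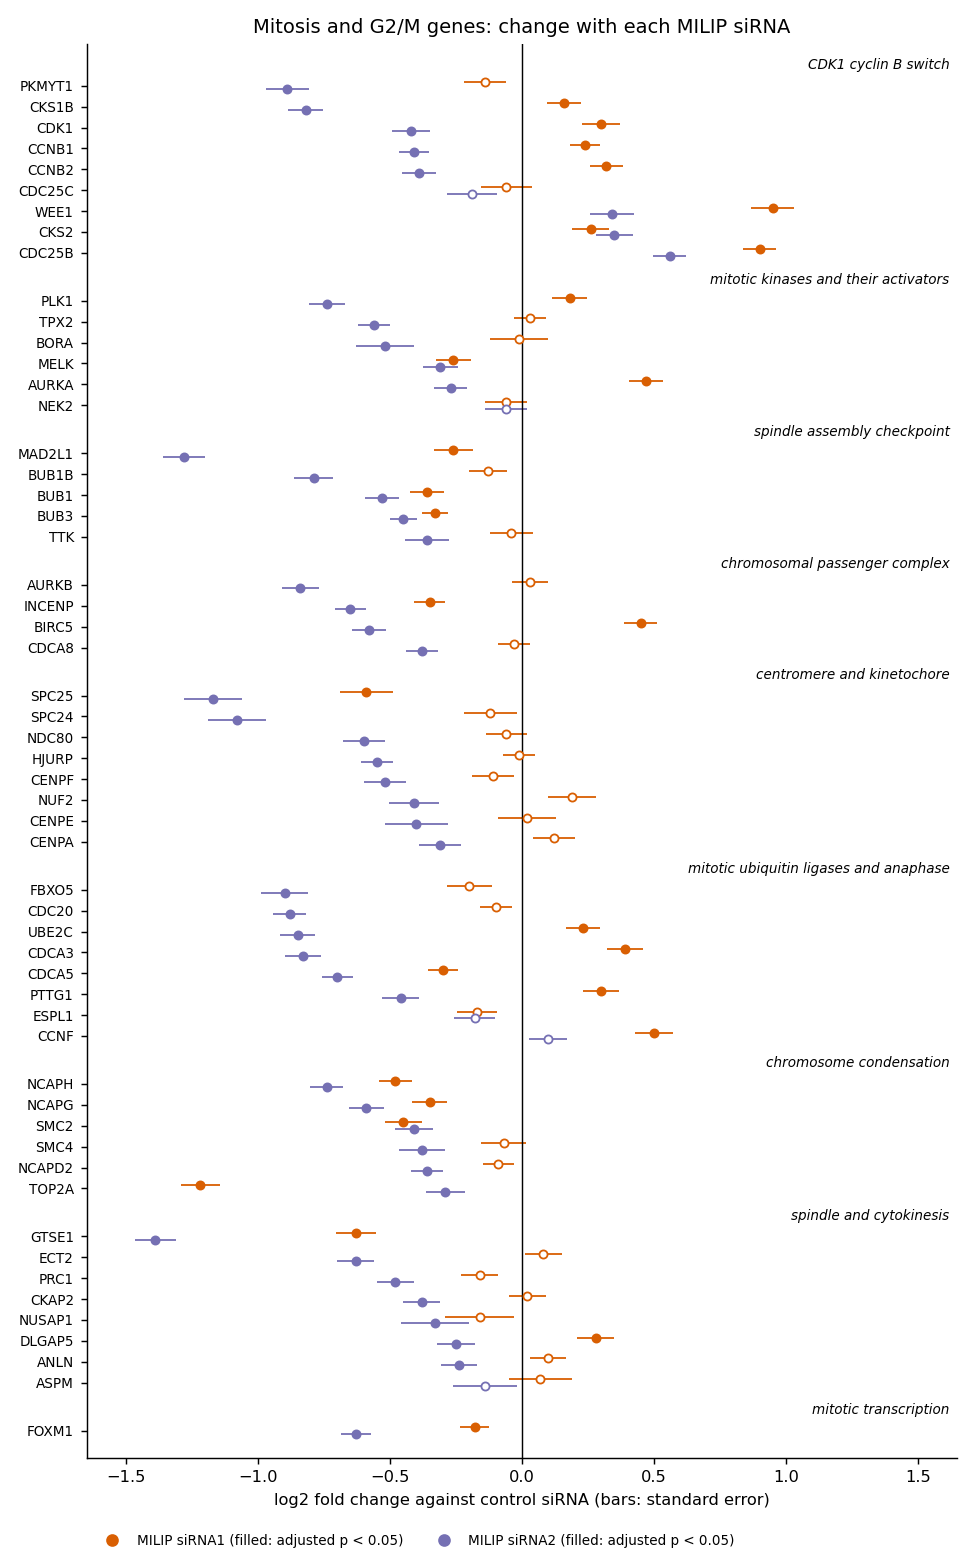
Log2 fold change against control siRNA with MILIP siRNA1 (orange) and MILIP siRNA2 (purple) for the 55 genes, grouped by role; bars are standard errors and filled points have an adjusted p below 0.05. Most purple points lie left of 0, down to -1.39 for GTSE1, while orange points lie on both sides, up to 0.95 for WEE1 in the CDK1 and cyclin B group and down to -1.22 for TOP2A in the condensation group.

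Level per length differed widely among the 55 genes. Their median in control libraries was 28 FPKM, against 3.83 FPKM over all tested genes. CDC20 was the most abundant, at 185 ± 11.6 FPKM with siRNA1, 106 ± 6.45 FPKM with siRNA2 and 195 ± 10.7 FPKM in control libraries. CKS2 came next in control libraries and first with either siRNA, at 207 ± 7.5, 217 ± 11.7 and 170 ± 18.9 FPKM in the same order. CCNB1 followed at 161 ± 4.92 FPKM with siRNA1, 101 ± 5.26 FPKM with siRNA2 and 133 ± 7.73 FPKM in control libraries. At the low end, NUSAP1 had 2.56 ± 0.0666, 2.22 ± 0.255 and 2.81 ± 0.355 FPKM in that order (SD, n = 3 each). WEE1 was the next lowest in control libraries, at 4.81 ± 0.474 FPKM, against 9.43 ± 0.857 FPKM with siRNA1 and 6.06 ± 0.48 FPKM with siRNA2. The partners of a complex were not equally abundant: in control libraries AURKB, CDCA8, INCENP and BIRC5 had 56.5, 55.6, 46.4 and 32.6 FPKM, and SPC25 and SPC24 12.1 and 8.41 FPKM. The order of AURKB and CDCA8, which differed by less than their SDs of 3.57 and 2.07 FPKM, could not be told.

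**Figure D5:**
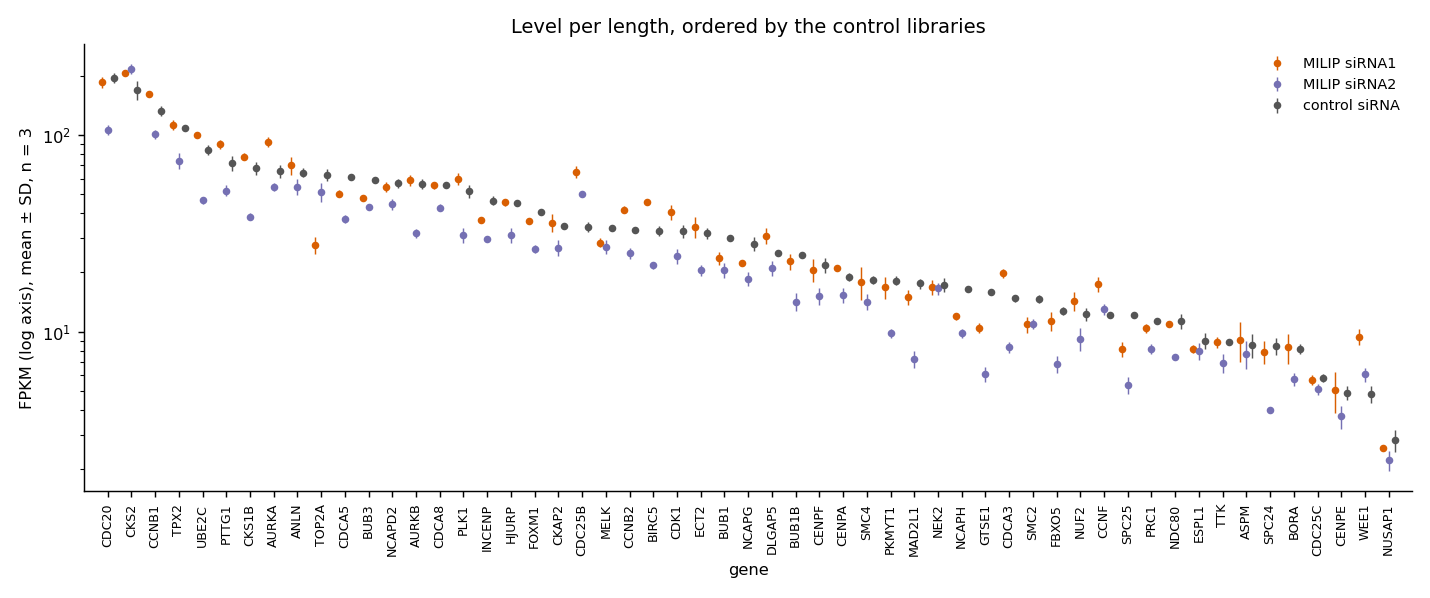
FPKM on a log axis, mean ± SD of 3 libraries per group, for the 55 genes ordered by their level in control libraries (grey), with siRNA1 in orange and siRNA2 in purple. Levels run from 195 FPKM for CDC20 to 2.81 FPKM for NUSAP1 in control libraries; purple points lie below grey ones for most genes, and TOP2A has its orange point well below the others.

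The other genes of mitosis, 118 from 8 further lists, were counted by the same calls. With siRNA2, 60 of 118 fell (50.8%, against 28.9% of all genes) and 12 rose (10.2%, against 27.2%), with a median of -0.26. With siRNA1, 44 fell (37.3%, against 25.3%) and 21 rose (17.8%, against 25.1%), with a median of -0.10. Opposite calls were found for 7 of them (5.93%, against 9.93%). In the anaphase-promoting complex, 8 of 17 genes fell and 3 rose with siRNA2, and 1 fell and 6 rose with siRNA1. The scaffold subunit ANAPC5 had 306 ± 5.86 CPM with siRNA1, 139 ± 1.57 CPM with siRNA2 and 284 ± 9.27 CPM in control libraries (SD, n = 3 each), a siRNA2 log2 fold change of -1.03. ANAPC1, the largest subunit, fell by 0.82 with siRNA2 and had -0.23 with siRNA1, not called. Among 29 other kinetochore genes 18 fell and 1 rose with siRNA2, and 13 fell and 2 rose with siRNA1, with SKA3 of the outer kinetochore at -1.16 with siRNA1 and -1.11 with siRNA2, and the dynein adaptor SPDL1 at 0.14 (not called) and -1.04.

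Cohesin, the ring that holds sister chromatids together, had more calls with siRNA1 than with siRNA2: 7 of 14 genes fell and none rose with siRNA1, and 2 fell and 1 rose with siRNA2. SMC1A, an ATPase of the ring, had 91.8 ± 3.3 CPM with siRNA1, 293 ± 9.26 CPM with siRNA2 and 312 ± 13.6 CPM in control libraries (SD, n = 3 each), and its siRNA1 log2 fold change was -1.77. STAG2, a subunit that binds the ring, had -1.44 with siRNA1 and 0.07 with siRNA2, not called. The 4 genes of condensin II and the chromosome periphery fell with both siRNAs, NCAPD3 at -0.64 with siRNA1 and -1.28 with siRNA2, and NCAPG2 at -0.75 with siRNA1 and -0.45 with siRNA2. The counts of these lists are descriptions without a test of their own.

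Among 9 genes of the DREAM and MuvB complexes and their regulators, 4 fell with siRNA1, and 5 fell and 1 rose with siRNA2. The 1 that rose was CDKN1A, which encodes the CDK inhibitor p21, at 170 ± 7.02 CPM with siRNA1, 429 ± 27.6 CPM with siRNA2 and 185 ± 8.06 CPM in control libraries (SD, n = 3 each). Its log2 fold change was -0.12 with siRNA1, not called, 1.22 with siRNA2 and 1.33 between the siRNAs (adjusted p 1.33e-15 by edgeR). LIN9, a MuvB subunit, had -1.05 with siRNA1 and -0.29 with siRNA2. Of 22 genes of spindle assembly and the centrosome 16 fell and 1 rose with siRNA2, and 9 fell and 3 rose with siRNA1, with CEP152 of the centriole at -0.37 with siRNA1 and -0.85 with siRNA2. HAUS7 of the augmin complex had -0.14 with siRNA1, not called, and -1.27 with siRNA2. In the list of 8 other cytokinesis genes 1 fell and 4 rose with siRNA1, and 2 fell and 2 rose with siRNA2. RACGAP1, the partner of ECT2 at the central spindle, had 239 ± 11.4 CPM with siRNA1, 108 ± 9.87 CPM with siRNA2 and 201 ± 6.32 CPM in control libraries, so it rose with siRNA1 (0.25) and fell with siRNA2 (-0.90). ARHGEF2, a microtubule-bound exchange factor of RhoA, fell with siRNA1 (-0.33) and was not called with siRNA2 (-0.08). Of 15 other genes of the checkpoint and mitotic entry 5 fell and 6 rose with siRNA1, and 5 fell and 3 rose with siRNA2. Over all genes, 25.3% fell and 25.1% rose with siRNA1, and 28.9% fell and 27.2% rose with siRNA2, so counts such as 2 of 8 or 5 of 15 lie near the background. ARPP19, an inhibitor of the phosphatase that opposes CDK1, was at 0.00 with siRNA1 and -1.18 with siRNA2, and cyclin B3, encoded by CCNB3, at 2.12 CPM or less on average in each group, rose with siRNA1 (1.35).

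Each siRNA went with a 7-base word in 3′UTRs whose holders were lower, a word picked on these same fold changes, so its values among the genes below are descriptions. With siRNA1 the word AATTCCA, found in 2110 of 12582 UTRs (16.8%), went with a median log2 fold change of -0.224, against 0.038 for UTRs without it. With siRNA2 the word GACCCTA, found in 665 UTRs (5.29%), went with -0.323, against 0.0136. MILIP holds both words. In the module 3 genes hold the siRNA1 word, namely BUB3, MAD2L1 and TOP2A, in UTRs of 6632, 4510 and 1003 bases. The longest UTR of the module without it, that of SMC2, has 2102 bases. All 3 holders fell with siRNA1, with a median of -0.328 against -0.02 over the 52 genes without it. Over all genes 25.3% fell with siRNA1, and the share among all holders of the word was not counted. GTSE1 (-0.63), SPC25 (-0.59) and NCAPH (-0.48) fell with siRNA1 without holding the word. BIRC5 alone holds the siRNA2 word. The sites are shown because TOP2A, the gene with the lowest siRNA1 value, is among them. They are 25 bases of GENCODE v29 transcripts in GRCh38, with the word in capitals.
BUB3: gccatgaggAATTCCAtgacatgga
MAD2L1, first site: tagtccaacAATTCCAgttgaacaa
MAD2L1, second site: atatacctaAATTCCAtattctctg
BIRC5: actgctgtgGACCCTActgggtttt
TOP2A: tattagctaAATTCCAacaattttg
BIRC5 had -0.58 with siRNA2, and the 54 genes without the siRNA2 word had a median of -0.456. Of the genes named from the further lists, SMC1A, STAG2, SKA3, LIN9 and ANAPC1 hold the siRNA1 word. Their siRNA1 fold changes were -1.77, -1.44, -1.16, -1.05 and -0.23, the last not called. ARPP19, at -1.18 with siRNA2, holds the siRNA2 word. The other genes named from those lists hold neither word, among them NCAPG2, at -0.75 with siRNA1, and HAUS7, at -1.27 with siRNA2. Whether the siRNAs act on other transcripts through such sites was not tested.

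The summed level of 7 markers of luminal epithelium was 408 to 457 FPKM with siRNA1, 211 to 219 FPKM with siRNA2 and 219 to 245 FPKM in control libraries, nearly all of it from KRT8 and KRT18, while ESR1 and PGR, 2 defining genes of the 7, were at or near 0. GATA3 had 1.28 FPKM with siRNA1, 2.16 FPKM with siRNA2 and 2.13 FPKM in control libraries on average, and EPCAM 2.41, 1.37 and 2.3 FPKM in that order. Among the markers of the line itself, CAV1 averaged 28.5 FPKM with siRNA1, 72.1 FPKM with siRNA2 and 84.4 FPKM in control libraries, and ZEB1 5.18, 7.07 and 9.3 FPKM in that order. The 4 leukocyte and 3 fibroblast genes summed to at most 0.23 FPKM and 0.05 FPKM in any library, and 2 of the leukocyte genes had 0 counts in all. The 3 endothelial genes summed to between 0.5 and 1.27 FPKM, most of it PECAM1. The part of these levels in the changes of the mitotic genes was not tested.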

How the data were processed

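RNA of 9 MDA-MB-231 libraries was sequenced, and groups follow the treatment labels. For every gene and library the deposited table gives a count made by the authors. It also holds FPKM values, which the authors derived from the counts: dividing each count by exonic length and library total gave 100% of the deposited FPKM within 0.006. Trimmomatic 0.30, HISAT2 2.0.1, HTSeq 0.6.1 and DESeq are named in the submitters' processing notes, with no roles. The notes name hg19, but the table's coordinates are those of GRCh38: of 58394 identifiers found in GENCODE v29, 99.84% overlapped the same gene. Gene symbols are those of the table.

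The filterByExpr filter (minimum count 10, minimum total 15) left out 45267 genes. The counts of the 15345 others (99.87% of all counts) were TMM-scaled, and edgeR's quasi-likelihood test (two-sided) was run in 1 fit of 3 groups with Benjamini-Hochberg adjustment at 0.05. Each siRNA was compared with control, and siRNA2 with siRNA1. CPM are TMM-scaled counts per 1000000. At these depths 3 counts in a library make 0.152 to 0.196 CPM, a floor that covers counting error only. The common biological coefficient of variation over genes was 0.0641. No libraries were identical, and within groups the chi-square per gene between pairs was 2.16 to 8.42.

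The members and lists were chosen with earlier results of these data known. Values in every library are given for the member of each role with the highest mean FPKM, those with the largest fold change in each comparison, and those called in opposite directions. Of each further list the 2 genes with the largest fold change among those called with either siRNA are named. Any listed member may be named.

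Promoter windows are RefSeq's (GRCh38.p14). The 3′UTR words were scored on the longest annotated 3′UTR per gene, among 15940 words found in at least 100 UTRs. Alternatives were DESeq2 1.42.0, other scalings and filters, limma 3.58.1 on log2(FPKM + 1) and log2(FPKM + 0.1), the compared groups alone, a replicate block, a fold minimum of 1.2, and each library left out. R 4.3.3, edgeR 4.0.16 and Python 3.11.15 were used.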

Additional observations from a re-analysis of the deposited data

Results flagged for a closer look

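For 11 genes the effects of the siRNAs had opposite signs, each called against control, and the test of the difference between the siRNAs (siRNA2 against siRNA1, edgeR's quasi-likelihood test) was called too. The log2 fold changes of siRNA2 against siRNA1 were -0.72 for CDK1, -0.65 for CCNB1, -0.71 for CCNB2 and -0.98 for CKS1B. They were -0.92 for PLK1, -0.73 for AURKA, -1.03 for BIRC5 and -1.08 for UBE2C. They were -1.23 for CDCA3, -0.76 for PTTG1 and -0.53 for DLGAP5. In each of the 11 genes every siRNA2 library was below every siRNA1 library. The genes were picked by their opposite calls, so this order and the call between the siRNAs largely follow from the choice. Over all genes tested, 9.93% had opposite calls.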

How the results depend on the processing

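The siRNA2 drop kept its size under every setting but the fold minimum: 45 to 48 of the 55 genes fell with 1 library left out, 48 with a replicate block, and 46 to 47 with DESeq2, other scalings, other filters, limma on FPKM or the compared groups alone. The replicate numbers did not pair the libraries (correlations of deviations from -0.0508 to 0.0969), and with the block 28 genes were called with siRNA1, 51 with siRNA2 and 47 between the siRNAs. Against a fold of 1.2, 11 genes were called with siRNA1 (5 lower, 6 higher), 36 lower and 1 higher with siRNA2, 5 in the same direction with both (4 lower, 1 higher) and 2, BIRC5 and CDCA3, in opposite directions. Of the 11 opposite genes, 9 kept both calls in every fit but this one; CKS1B and PLK1 did not.

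With each library left out, 26 to 32 genes were called with siRNA1 (13 to 17 lower, 13 to 15 higher), 48 to 51 with siRNA2 (3 higher in every fit) and 45 to 47 between the siRNAs (44 to 46 lower, 1 higher). Of these, 16 to 20 were called alike with both siRNAs (13 to 17 lower, 3 higher), and 9 to 11 in opposite directions. The medians ranged from -0.07 to -0.02 with siRNA1, -0.51 to -0.44 with siRNA2 and -0.52 to -0.41 between the siRNAs, and MILIP from -3.22 to -2.41 with siRNA1 and from -4.22 to -3.47 with siRNA2.

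In alternatives chosen after seeing the data, 84.3% fell with siRNA2 without the 4 genes that hold a word, against 85.5% of all 55. With siRNA1, 19.6% fell, against 23.6%. Then 0% were higher with siRNA2 than with siRNA1, since TOP2A, the 1 such gene, is among the 4. Without the 22 genes over an opposite-strand gene, 81.8% fell with siRNA2, against 85.5% of all 55. Lower with siRNA2 than with siRNA1 were 78.8%, against 83.6%. With siRNA1, 30.3% fell, against 23.6%, and 33.3% rose, against 27.3%. CKS2, CDC25B and WEE1, which rose with both siRNAs, and TOP2A, higher with siRNA2 than with siRNA1, overlap no opposite-strand gene. Their shares therefore changed only with the total, to 9.09% from 5.45% and to 3.03% from 1.82%. Of 3135 values of single genes over all settings, 82 lost a call, 16 gained one and 0 changed sign among the called. The causes were not tested. All 55 genes passed the filter on low counts, and fold changes near their SE could not be called at this depth and spread.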
